A study of Mus musculus with 24 samples.

Results

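The genes described here are 9 members of the machinery that releases stored fat: Pnpla2, Pnpla3, Lipe, Mgll, Abhd5, G0s2, Adrb1, Adrb3 and Aqp7. They were chosen by symbol, and each was found as 1 entry among the 37041 genes of 24 RNA sequencing libraries, which form 8 groups of 3. C2C12 cells are mouse myoblasts, an established line able to fuse into muscle fibres. NFIA is one of the nuclear factor I proteins, which bind DNA and regulate transcription. Control and NFIA-expressing C2C12 cells were sampled as myoblasts at day 0, untreated at day 7, and at day 7 following 4 h of 10 µM forskolin, an activator of adenylyl cyclase. The other libraries come from neonatal brown adipose tissue, untreated, of wild-type mice or of mice labelled NFIA-KO. The sources used here name neither the promoter that drives NFIA in the cells, nor the strain, nor the knockout allele. No label says that the libraries of a group came from separate cultures or animals, so p-values measure only the spread between these libraries, which may be technical.

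Adipocytes break down triglycerides stepwise. Pnpla2, also known as adipose triglyceride lipase, removes the first fatty acid, Lipe (hormone-sensitive lipase) the next and Mgll (monoglyceride lipase) the last, and the glycerol that remains leaves through the channel Aqp7. Abhd5 is the protein activator of Pnpla2 and G0s2 is its protein inhibitor, while Pnpla3 is a relative of Pnpla2 found on lipid droplets. Noradrenaline acts on beta-adrenergic receptors, such as those encoded by Adrb1 and Adrb3, which raise cAMP and thereby activate protein kinase A, the kinase that phosphorylates Lipe and the droplet coat. In brown fat the fatty acids released this way fuel heat production, and Adrb3 is the receptor best known for it in rodents.

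Levels are FPKM, which divide fragments by transcript length and by a library's mapped fragments and so can be compared between genes of a library. Their sum over a library was not constant, from 762822 in NFIA-KO tissue replicate 3 to 1575522 in NFIA cells with forskolin, replicate 2. In NFIA cells at day 7 the sums were 1198538, 1167436 and 1199326 without forskolin and 941965, 1575522 and 1478370 with it. Levels are given without correction for these sums. In mm9, the build of the tables, Pnpla2 lies at chr7:148641097-148646642, Lipe at chr7:26164546-26183729, Pnpla3 at chr15:83998246-84019942 and Mgll at chr6:88666418-88778354. Abhd5 lies at chr9:122260726-122290642, G0s2 at chr1:195098355-195099382 and Aqp7 at chr4:40980107-40995172. The receptor genes Adrb1 and Adrb3 lie at chr19:56796862-56799352 and chr8:28336248-28340060. All 9 are protein-coding genes of GENCODE M21. The listed loci of 2 of them overlap another entry, Lipe that of 4732471J01Rik, with at most 8.25 FPKM in any library, and Mgll that of Gm16628, with at most 2.69 FPKM. Overlapping entries may share reads, although the libraries were stranded.

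Promoter sequences from RefSeq on GRCm38.p6 matched 8 of the 9 genes, with 11 start sites. The 250 bases before the start are printed, 5′ to 3′ on the gene's strand, for the gene that rose with forskolin in NFIA cells, Abhd5, and for the 2 that fell most, G0s2 and Pnpla3, as described further on. They come from chr15:84167566-84167815 (plus strand), chr9:122351366-122351615 (plus strand) and chr1:193273189-193273438 (minus strand). Capitals mark every match, on either strand, to the motifs searched.
Pnpla3: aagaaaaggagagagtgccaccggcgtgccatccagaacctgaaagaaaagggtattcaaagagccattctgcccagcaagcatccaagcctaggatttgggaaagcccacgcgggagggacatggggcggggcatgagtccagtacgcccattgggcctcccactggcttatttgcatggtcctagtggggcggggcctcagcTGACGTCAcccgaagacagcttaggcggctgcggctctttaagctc
Abhd5: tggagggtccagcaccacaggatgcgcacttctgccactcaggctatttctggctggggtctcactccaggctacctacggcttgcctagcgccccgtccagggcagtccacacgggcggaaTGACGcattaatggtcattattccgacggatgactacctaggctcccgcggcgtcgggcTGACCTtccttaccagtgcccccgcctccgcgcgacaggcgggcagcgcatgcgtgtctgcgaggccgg
G0s2: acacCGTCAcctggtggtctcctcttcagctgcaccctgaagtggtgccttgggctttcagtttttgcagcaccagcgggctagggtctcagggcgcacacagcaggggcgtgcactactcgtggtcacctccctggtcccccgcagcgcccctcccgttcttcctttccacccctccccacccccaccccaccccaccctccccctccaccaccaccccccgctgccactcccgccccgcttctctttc
The full cAMP response element TGACGTCA was found in 1 of the 8 genes, Pnpla3, with its first base at position -46 from the start. That is 1 of the 11 start sites, beside 1.79% of 32851 promoters of the same length. Its shorter core TGACG, which the full element contains, was found in 5 of the 8 genes, at 5 of the 11 start sites, and in 20.8% of all promoters. The nuclear receptor core AGGTCA was found in 2 genes, at 3 of the 11 start sites, and in 16.3% of promoters. The NFI core TTGGC was found in 3 genes, at 4 of the 11 start sites, and in 46.7% of promoters. The direct repeat of AGGTCA with 1 base between, bound by PPAR and RXR, was in 0 of the 8 genes and in 0.0396% of promoters. For the NFI palindrome of TTGGC and its inverse with 5 bases between, the values were 0 and 0.0365%. These windows reach 50 bases past the start, are matches of letters only, and say nothing of binding.

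Between 17304 and 21410 genes had a value above 0 in a library, and the depth behind a value is unknown, since the tables hold no read totals. Nfia was at 0.26 to 2.23 FPKM in control cells and at 1252 to 1283, 3189 to 3585 and 9232 to 10448 FPKM in NFIA cells at day 0, at day 7 and with forskolin. In tissue it was at 24.3, 32.8 and 32.6 FPKM in wild-type libraries and at 44.6, 40.1 and 39.4 FPKM in the libraries labelled NFIA-KO, higher in all 3, which goes against the label (log2 difference 0.47 ± 0.15 SE, limma, adjusted p = 0.097). The sources used here do not say whether the gene-level value includes the deleted part, so the tissue groups are named by their labels throughout. Ucp1, the heat-producing uncoupling protein of brown fat, was at 4073 to 7240 FPKM in wild-type tissue and at no more than 0.13 FPKM in NFIA cells at day 7. The summed FPKM of 8 adipocyte markers was 9.39 to 14.1 in control cells and 22443 to 24657 in NFIA cells at day 7. That of 16 skeletal muscle markers was 30366 to 31610 and 3385 to 4714. In bulk libraries, fewer cells of a type and less RNA per cell cannot be told apart. Among the C2C12 libraries, the replicates numbered 2 and 3 carry a later date in their column headers than replicate 1, and what that date records is not given. Of the 63 results for the 7 of the 9 genes that were tested in C2C12 cells, 45 passed the test. All 45 had the same sign in the earlier libraries, 39 were tested in the later libraries alone, and all 39 passed there too. The 6 others are results for Aqp7, which the expression filter then removed.

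The 9 genes fell into different level patterns over the 8 groups. Pnpla2 had the highest mean of the 9 in tissue and in NFIA cells at day 7 without and with forskolin, although its range without forskolin overlapped that of G0s2. It had means of 3690 ± 830 and 2585 ± 257 FPKM (SD, n = 3) in NFIA-KO and wild-type tissue, whose ranges overlapped, then 809 ± 121 and 709 ± 69.0 FPKM in NFIA cells at day 7 without and with forskolin. Its 4 other groups lay between 12.5 and 24.1 FPKM and overlapped each neighbour in the order. Lipe was also higher in tissue than in NFIA cells, with 502 ± 113 FPKM in wild-type and 399 ± 134 FPKM in NFIA-KO tissue, whose ranges overlapped. In NFIA cells at day 7 it was at 101 ± 16.7 FPKM without and 64.4 ± 9.27 FPKM with forskolin, with no overlap between these neighbours. Mgll spanned 253 ± 135 FPKM in wild-type tissue to 1.04 ± 0.25 FPKM in control cells at day 0, and its 3 neighbouring pairs among the 4 highest groups overlapped.

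Abhd5 and Pnpla3 were highest in the cells. Abhd5 peaked at 218 ± 7.40 FPKM (SD, n = 3) in NFIA cells with forskolin, followed by 149 ± 4.66 FPKM without it, 85.2 ± 9.20 in wild-type and 52.8 ± 7.55 in NFIA-KO tissue, with no overlap between these neighbours. Pnpla3 ran from 57.0 ± 5.26 and 18.1 ± 1.84 FPKM in NFIA cells without and with forskolin down to 2.88 ± 1.75 and 1.03 ± 0.18 FPKM in tissue. Set against the wild-type tissue mean, NFIA cells at day 7 held 31.3% of its Pnpla2, 20.04% of its Lipe and 51.7% of its Mgll and 175% of its Abhd5. Pnpla3 was higher in those cells than in every tissue library, while the ranges of G0s2 in those cells and in wild-type tissue overlapped. For the glycerol channel Aqp7 the share was 1.38%, for Adrb3 17.6% and for Adrb1 1.40%. Cells and tissue differ in material and were not tested against each other. G0s2 was at 366 ± 352 FPKM in wild-type tissue and lowest in the libraries labelled NFIA-KO, at 2.77 ± 1.71 FPKM.

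**Figure D1:**
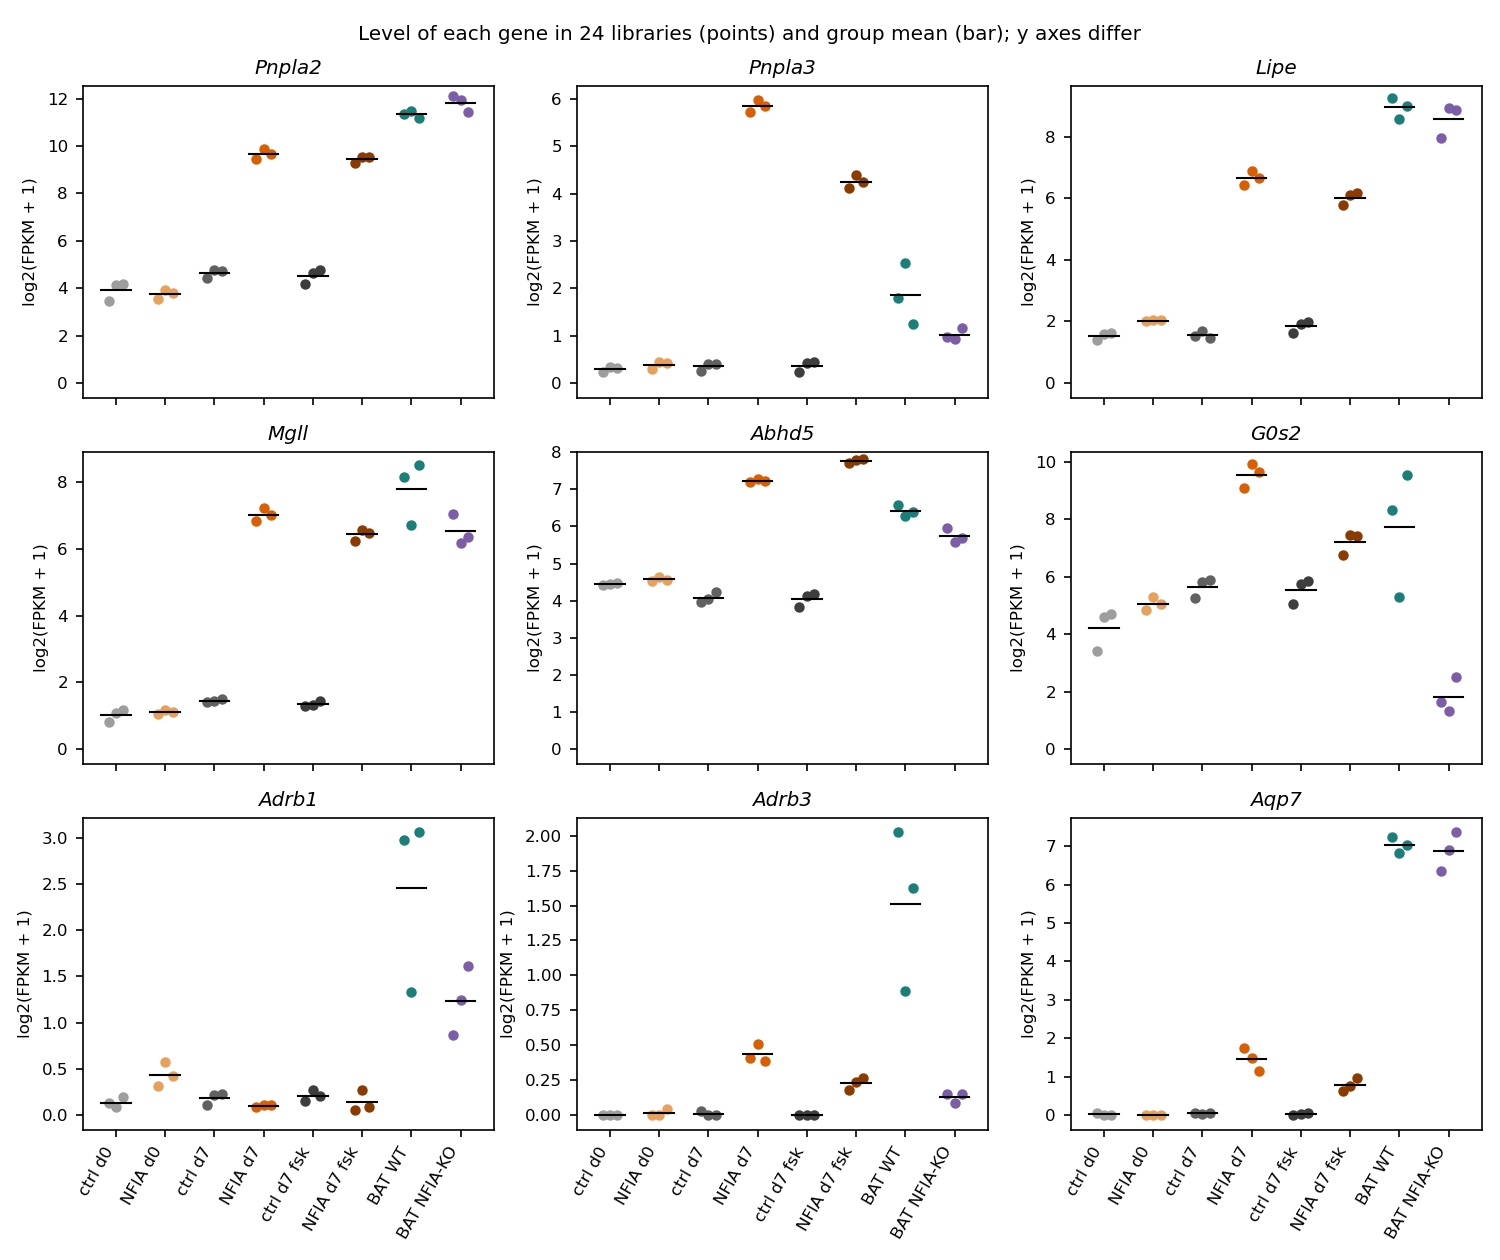
Level of the 9 genes in 24 libraries, as log2(FPKM + 1) on the y axis, by group on the x axis (ctrl, control cells; d0 and d7, day 0 and day 7; fsk, forskolin; BAT, brown adipose tissue). Points are libraries and bars are means of 3; Pnpla2, Lipe, Mgll and Aqp7 are highest in tissue, and Pnpla3, Abhd5 and G0s2 in NFIA cells.

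At day 0, of the 7 genes tested, 1 rose and 0 fell in cells expressing NFIA against control cells, where 12.1% of all 14351 genes tested rose and 9.07% fell, a share near the background. The gene that rose was Lipe, at 1.61, 2.04 and 2.07 FPKM in control cells and 3.0, 3.14 and 3.08 FPKM in NFIA cells. Its groups did not overlap, and the log2 difference was 0.49 ± 0.13 (SE, limma on log2(FPKM + 1), adjusted p = 0.016). Leaving out control replicate 1 or NFIA replicate 2 ended this call (adjusted p = 0.068 and 0.053). G0s2 was at 9.56, 23.2 and 24.8 against 27.4, 38.2 and 32.3 FPKM, a log2 difference of 0.83 ± 0.34 (limma, adjusted p = 0.10). Within the later libraries alone G0s2 passed, with 0.53 (limma, adjusted p = 0.0045), as did Pnpla2 in the other direction, with -0.30 (adjusted p = 0.022). Adrb1 and Adrb3 were below the expression filter of 1 FPKM in 3 libraries in all C2C12 cells.

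By day 7 the enzymes of all 3 hydrolysis steps were 33.6- to 76.0-fold higher in NFIA cells than in control cells. Pnpla2 was at 20.7, 25.8 and 25.7 FPKM in control cells and at 692, 934 and 800 FPKM in NFIA cells. Lipe was at 1.87, 2.22 and 1.74 against 84.8, 118 and 98.9 FPKM, and Mgll at 1.64, 1.71 and 1.82 against 114, 151 and 128 FPKM. In each of the 3 genes every NFIA library lay far above every control library. The ratios of the means were 33.6, 51.7 and 76.0, and the log2 differences were 5.01 ± 0.20, 5.10 ± 0.13 and 5.59 ± 0.11 (SE, limma, highest adjusted p = 9.6e-12).

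The activator and the inhibitor of Pnpla2 also rose. Abhd5 was at 14.7, 15.4 and 17.8 FPKM in control cells and at 145, 154 and 147 FPKM in NFIA cells, a log2 difference of 3.15 ± 0.09. G0s2 was at 37.6, 54.9 and 57.7 against 549, 963 and 802 FPKM, a log2 difference of 3.91 ± 0.34 (limma, adjusted p = 9.0e-08). Pnpla3, at 0.19, 0.31 and 0.32 FPKM in control cells, reached 51.8, 62.3 and 56.8 FPKM. That is 208 times the control mean, and on the log2(FPKM + 1) scale, which understates the change of low genes, 5.51 ± 0.09. Aqp7 was at 0.02 to 0.03 FPKM in control cells and at 2.37, 1.81 and 1.2 FPKM in NFIA cells (log2 difference 1.42 ± 0.12, limma, adjusted p = 7.2e-08). In all, 7 of the 7 genes tested were higher, where 26.1% of all genes tested were higher and 29.4% lower. Aqp7 and Pnpla3 passed the filter on low values through NFIA cells at day 7, without or with forskolin, so their place in that count was fixed by the filter. Adipocyte markers rose in the same libraries, 7 of 7 tested, and skeletal muscle markers fell, 16 of 16. The adipocyte markers Adipoq, Plin1, Cidec and Retn had means of 0.12 FPKM or less in all other C2C12 groups. They passed the filter only through NFIA cells at day 7, without or with forskolin, so the filter fixed their places. The part of these marker changes in the differences was not tested. With forskolin in both kinds of cells, 7 of 7 genes were again higher in NFIA cells (28.7% of all genes were higher and 32.9% lower), from 0.76 ± 0.12 for Aqp7 to 5.09 ± 0.11 for Mgll. The filter again fixed the place of Pnpla3 in the count. Aqp7 was under 1 FPKM in every library of both groups with forskolin and entered only through NFIA cells without it.

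**Figure D2:**
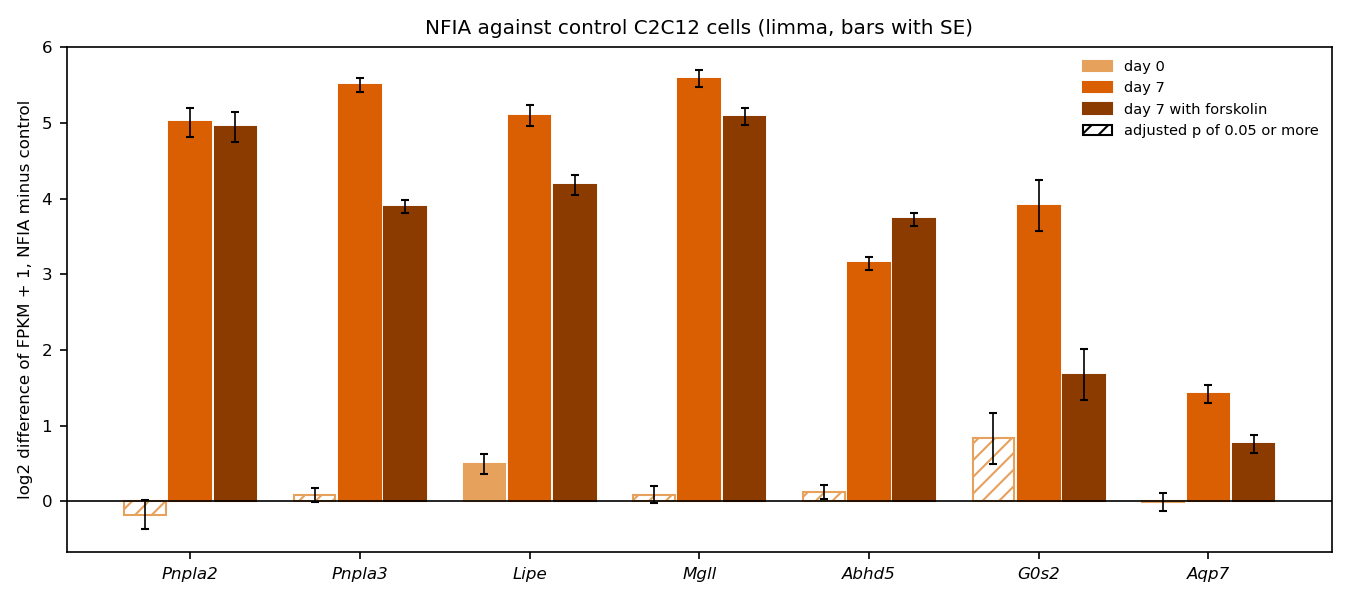
Log2 difference of FPKM + 1 (y axis, NFIA minus control cells) for the 7 genes tested in C2C12 cells (x axis) at day 0, day 7 and day 7 with forskolin. Bars are limma estimates with SE over 3 libraries a group; filled bars passed at an adjusted p under 0.05, and 1 of the 7 day 0 bars, Lipe, is filled.

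Other genes of the pathway were read from 5 lists. At day 7, 26.1% of all genes tested were higher in NFIA cells and 29.4% lower. Of 10 tested genes of the lipid droplet coat and its fatty acid carriers, 9 rose and 1 fell at day 7 (median log2 difference 6.14, against -0.03 over all genes). On the log2 scale Fabp4, a fatty acid carrier, was 12.18 ± 0.38 higher, and the coat genes Cidec, Plin1, Plin4 and Plin2 were 8.56, 8.31, 7.59 and 3.92 higher. Of 11 tested genes for other hydrolases, 9 rose and 1 fell (median 1.17). Among them were the carboxylesterases Ces1f and Ces1d, at 92 and 49.8 FPKM against 0.02 and 0.01 in control cells, and lipoprotein lipase, Lpl, at 1107 against 81.1 FPKM. Of 4 tested genes of glycerol and glycerol phosphate use, 3 rose and 1 fell. Gpd1, which makes glycerol 3-phosphate, rose by 6.52 ± 0.12, Pck1 by 5.06 ± 0.07 and glycerol kinase, Gyk, by 1.09 ± 0.15. Members that passed the filter through NFIA cells only had to differ.

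Receptor and cAMP genes were read in the same way, with 26.1% of all genes higher and 29.4% lower. Of 7 tested receptor genes 5 rose and 0 fell (median 1.32). The corticotropin receptor Mc2r rose from 0.03 to 4.37 FPKM and the alpha-adrenergic receptor Adra1d from 1.55 to 16.5 FPKM. Mc2r passed the filter only through NFIA cells at day 7, without or with forskolin, so its place among the 5 was fixed. Adora1, also among the 5, had a mean above 1 FPKM only in NFIA cells at day 7 without forskolin (1.37 against 0.58 FPKM in control cells). Npr3 and the insulin receptor Insr rose by 2.30 ± 0.12 and 1.32 ± 0.16. Of 18 tested genes for G proteins, cyclases, phosphodiesterases and protein kinase A, 6 rose and 7 fell (median -0.16), shares near those of all genes. The kinase's regulatory subunits moved in opposite directions: Prkar2b rose by 3.35 ± 0.10, from 25.7 to 273 FPKM, and Prkar1a fell by 1.82 ± 0.08, from 477 to 134 FPKM. Pde3b, the phosphodiesterase through which insulin restrains lipolysis, rose by 3.17 ± 0.20, and the cyclase gene Adcy7 fell by 2.83 ± 0.06.

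The rise of the lipolysis genes from day 0 to day 7 was found mainly in NFIA cells. There, 7 of 7 genes rose (27.5% of all genes rose and 29.4% fell), although the filter fixed the places of Aqp7 and Pnpla3 in that count. The 5 others rose as follows: Pnpla2 from a mean of 12.5 to 809 FPKM, Lipe from 3.07 to 101, Mgll from 1.16 to 131, Abhd5 from 22.8 to 149 and G0s2 from 32.6 to 771. In control cells 3 rose and 1 fell, where 24.9% of all genes rose and 23.9% fell. Pnpla2 rose by 0.71 ± 0.20, Mgll by 0.42 ± 0.11 and G0s2 by 1.42 ± 0.34, while Abhd5 fell by 0.37 ± 0.09 (limma, highest adjusted p = 0.0073). The difference between the cell types in the change over time, the interaction of NFIA and day, passed as higher for 7 of 7 genes, where 19.8% of all genes passed as higher and 25.5% as lower; Aqp7 and Pnpla3 again entered through NFIA cells at day 7. It ranged from 1.44 ± 0.17 for Aqp7 to 5.50 ± 0.16 for Mgll. Nfia itself rose from day 0 to day 7 in NFIA cells, by 1.39 ± 0.20, and the part of its level in these results was not tested. Quantile normalization moved the median of all genes in control cells from 0.02 to -0.11 and the share of higher calls from 51.0% to 39.6%, and Mgll was then no longer called (0.08, adjusted p = 0.37).

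With forskolin the regulators of Pnpla2 moved in opposite directions, while Pnpla2 itself did not pass the test. In NFIA cells G0s2, the inhibitor, fell from 549, 963 and 802 FPKM to 108, 175 and 170 FPKM, the 18th lowest log2 difference of all 14351 genes (-2.34 ± 0.34 SE, limma, adjusted p = 8.1e-05). Abhd5, the activator, rose from 145, 154 and 147 FPKM to 209, 221 and 223 FPKM (0.55 ± 0.09, adjusted p = 0.00021). In both genes the groups did not overlap. Pnpla2 was at 629, 748 and 750 FPKM with forskolin, within the range without it, apart from its lowest library. Its log2 difference of -0.18 ± 0.20 (limma, adjusted p = 0.54) has a 95% confidence interval from -0.60 to 0.24. Under quantile normalization Pnpla2 passed, at -0.52 (adjusted p = 0.021). Over the 10 alternatives other than leaving a library out, Abhd5 ranged from 0.27 to 0.56 and kept its call in each.

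The other enzymes and the channel were lower with forskolin in NFIA cells. Pnpla3, whose promoter is printed above with its full cAMP response element, fell to 16.4, 20.1 and 17.9 FPKM, by 1.60 ± 0.09 on the log2 scale (limma, adjusted p = 5.2e-09). Lipe fell to 53.8, 68.2 and 71.1 FPKM, by 0.63 ± 0.13 (adjusted p = 0.0021), and Mgll to 75.2, 94.9 and 88.4 FPKM, by 0.60 ± 0.11 (adjusted p = 0.00087). Aqp7 fell to 0.54, 0.69 and 0.95 FPKM, by 0.68 ± 0.12 (adjusted p = 0.00049), having passed the filter only through the 3 libraries without forskolin. For each of these 4 genes every library with forskolin was below every library without it. In all, 5 of 7 genes fell, Aqp7 among them through the filter, and 1 rose, where 16.9% of all genes fell and 15.7% rose. Nfia was 1.56 ± 0.20 higher with forskolin in the same cells and Adipoq, an adipocyte hormone, 0.47 ± 0.08 lower. The part of these changes in the result was not tested.

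In control cells none of the 7 genes passed with forskolin, where 3.97% of all genes did in either direction. By limma, 0 of the 7 had an unadjusted p under 0.05 either. Lipe had the largest difference, 0.28 ± 0.13 (adjusted p = 0.42), from 1.87, 2.22 and 1.74 to 2.06, 2.78 and 2.93 FPKM. The difference in response between NFIA and control cells was tested as an interaction, and 5 of 7 genes passed as lower and 1 as higher, where 9.61% of all genes passed as lower and 10.5% as higher. Aqp7, among the 5, passed the filter only through NFIA cells without forskolin, where it is high, so its place was fixed by the filter. The interaction was -2.23 ± 0.47 for G0s2, -1.61 ± 0.13 for Pnpla3, -0.91 ± 0.19 for Lipe and 0.58 ± 0.12 for Abhd5. For Pnpla2 it was -0.06 ± 0.28, with a 95% confidence interval from -0.66 to 0.53. The Mgll interaction (-0.50 ± 0.16, adjusted p = 0.037) was lost in 9 of 12 fits that left a library out and with a pseudocount of 0.1 (adjusted p = 0.16). That of Aqp7 (-0.66 ± 0.17, adjusted p = 0.012) was lost with that pseudocount (adjusted p = 0.076), and that of Abhd5 under quantile normalization (0.28, adjusted p = 0.11).

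**Figure D3:**
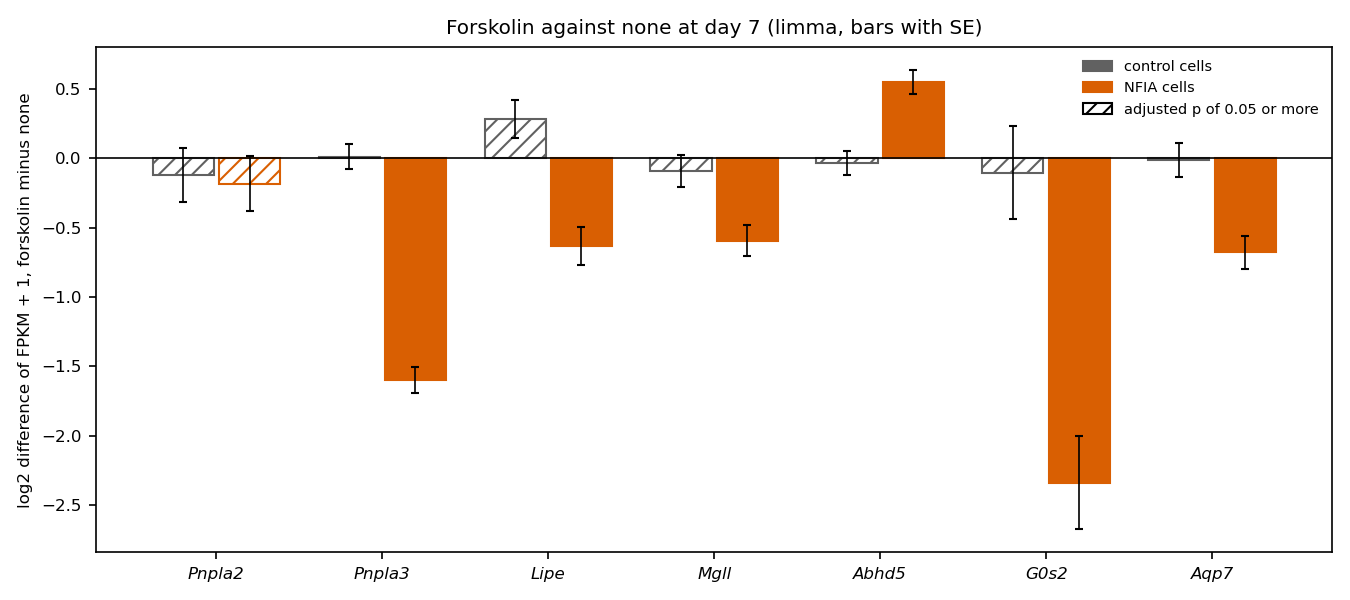
Log2 difference of FPKM + 1 (y axis, forskolin minus none at day 7) for 7 genes (x axis) in control and NFIA cells. Bars are limma estimates with SE over 3 libraries a group; hatched bars did not pass at an adjusted p under 0.05, and G0s2 and Pnpla3 in NFIA cells reach furthest below 0.

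The pathway lists were also read for forskolin in NFIA cells, where 15.7% of all genes rose and 16.9% fell. Among phosphodiesterases, which degrade cAMP, Pde4b rose from a mean of 18.8 to 104 FPKM (2.41 ± 0.09) and Pde3b from 54.8 to 130 FPKM (1.24 ± 0.20), among 4 genes higher and 2 lower of the 18 tested for cAMP and protein kinase A, shares near those of all genes. In control cells both also rose, Pde4b by 1.43 ± 0.09 and Pde3b by 1.02 ± 0.20, and the interaction passed for Pde4b (0.98 ± 0.13, limma, adjusted p = 5.5e-05) but not for Pde3b (0.22 ± 0.28, adjusted p = 0.68). The coat genes split, with 2 higher and 5 lower of 10 tested. Plin2 rose from 1625 to 3578 FPKM (1.13 ± 0.12), while Plin3, Plin4 and Cidec fell by 0.59, 0.43 and 0.42. Of 11 other hydrolases 1 rose, Lpl, from 1107 to 2470 FPKM, and 4 fell, of which Pnpla6 fell most (-0.72 ± 0.11). Lpl also rose in control cells, from 81.1 to 131 FPKM. Of 4 genes of glycerol use 3 rose, with Pck1 at 32.7 and 112 FPKM (1.73 ± 0.07), Gpd2 0.79 ± 0.14 and Gyk 0.56 ± 0.15 higher, while Gpd1 fell by 0.42 ± 0.12. The calls for Cidec and Gpd1 ended with a pseudocount of 0.1 (limma, adjusted p = 0.52 and 0.073) and in 2 fits each that left a library out, and that for Gyk in 1 fit (adjusted p = 0.054). Among the 4 hydrolases that fell, the calls for Abhd6 and Ddhd2 ended in 4 and 3 of 6 such fits (limma, highest adjusted p = 0.13 and 0.14).

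The receptor genes Adrb1 and Adrb3 were low in the cells, under 1 FPKM in every C2C12 library. Adrb1 was at 0.04 to 0.49 FPKM in the C2C12 libraries, highest in NFIA cells at day 0, with 0.24, 0.49 and 0.34 FPKM. Adrb3 was at 0.03 FPKM or less in all C2C12 groups but 2, being at 0.33, 0.42 and 0.31 FPKM in NFIA cells at day 7 and at 0.13, 0.18 and 0.20 FPKM with forskolin. These levels are under the filter. In a fit with no filter Adrb3 was 0.43 ± 0.03 higher in NFIA than in control cells at day 7 (limma, adjusted p = 8.0e-09, 38.3% of 24831 genes called) and 0.21 ± 0.03 lower with forskolin in NFIA cells (adjusted p = 5.4e-05). Adrb1 was 0.30 ± 0.07 higher in NFIA cells at day 0 in that fit (adjusted p = 0.0054).

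Of the 7 receptor genes tested from the list, 1 rose with forskolin in NFIA cells and 5 fell, where 15.7% of all genes rose and 16.9% fell. Npy1r, which inhibits cyclase, rose from 0.02 to 2.0 FPKM in NFIA cells and from 0.10 to 8.41 FPKM in control cells (3.08 ± 0.08, limma, adjusted p = 1.5e-11), and its interaction was -1.52 ± 0.11 (adjusted p = 2.7e-07). It passed the filter only through libraries with forskolin, where it is high, so the filter favoured its rise. Of the genes that fell, Adora1 had a mean above 1 FPKM only without forskolin (1.37 against 0.88 FPKM in NFIA cells). Adra1d fell by 1.54 ± 0.25 in NFIA cells. Insr fell by 0.52 ± 0.16 (limma, adjusted p = 0.025), a call that ended in 4 of 6 fits that left a library out.

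**Figure D4:**
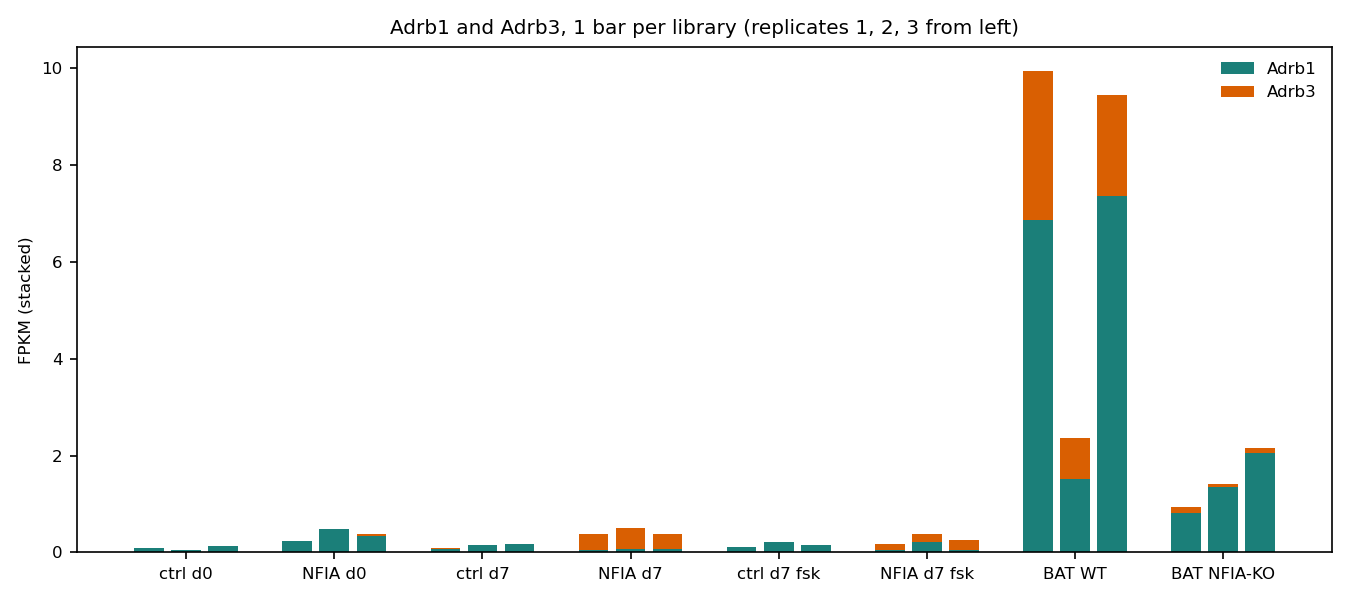
FPKM of Adrb1 and Adrb3 (y axis, stacked) in each of 24 libraries, 3 bars a group (x axis; ctrl, control cells; d0 and d7, day 0 and day 7; fsk, forskolin; BAT, brown adipose tissue). Wild-type replicates 1 and 3 have the highest bars, with Adrb1 at 6.87 and 7.35 FPKM and Adrb3 at 3.07 and 2.09 FPKM, and every C2C12 bar is low.

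In tissue the inhibitor G0s2 differed most. It was at 322, 38.2 and 737 FPKM in the wild-type libraries and at 2.11, 1.49 and 4.71 FPKM in the libraries labelled NFIA-KO, so the groups did not overlap although the wild-type libraries differed widely. The log2 difference of -5.90 ± 0.99 (SE, limma, adjusted p = 0.029) was the lowest of all 13618 genes tested, and the mean was 132-fold lower. Abhd5, the activator, was at 95.2, 77.1 and 83.2 against 61.4, 47.0 and 50.2 FPKM, also without overlap, and fell by 0.68 ± 0.14 (adjusted p = 0.042). These were 2 of the 8 genes tested, where 3.55% of all genes tested fell and 3.59% rose; 0 of the 8 rose. Pnpla2 itself was at 2624, 2819 and 2310 against 4386, 3914 and 2771 FPKM (0.49 ± 0.19, adjusted p = 0.14), with overlap. The 95% confidence interval of that difference ran from 0.05 to 0.94.

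The 5 other genes tested did not pass. Lipe was at 608, 384 and 513 FPKM in wild-type and 244, 483 and 470 FPKM in NFIA-KO tissue (-0.37 ± 0.30, limma, adjusted p = 0.45). Mgll was at 287, 105 and 368 against 130, 72.0 and 81.2 FPKM (-1.28 ± 0.47, adjusted p = 0.13). Aqp7 was at 150, 111 and 129 against 81.3, 119 and 164 FPKM (-0.15 ± 0.25, adjusted p = 0.74). The ranges of these 3 overlapped. Those of Pnpla3, which passed the filter in 4 of the 6 libraries, did not, with 2.47, 4.80 and 1.37 against 0.95, 0.90 and 1.24 FPKM (-0.84 ± 0.31, adjusted p = 0.13). Adrb1 was at 6.87, 1.52 and 7.35 against 0.82, 1.36 and 2.05 FPKM (-1.22 ± 0.47, adjusted p = 0.14). Adrb3, at 3.07, 0.85 and 2.09 against 0.11, 0.06 and 0.11 FPKM, did not overlap but was under the filter (-1.39 ± 0.28 with no filter, adjusted p = 0.088).

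**Figure D5:**
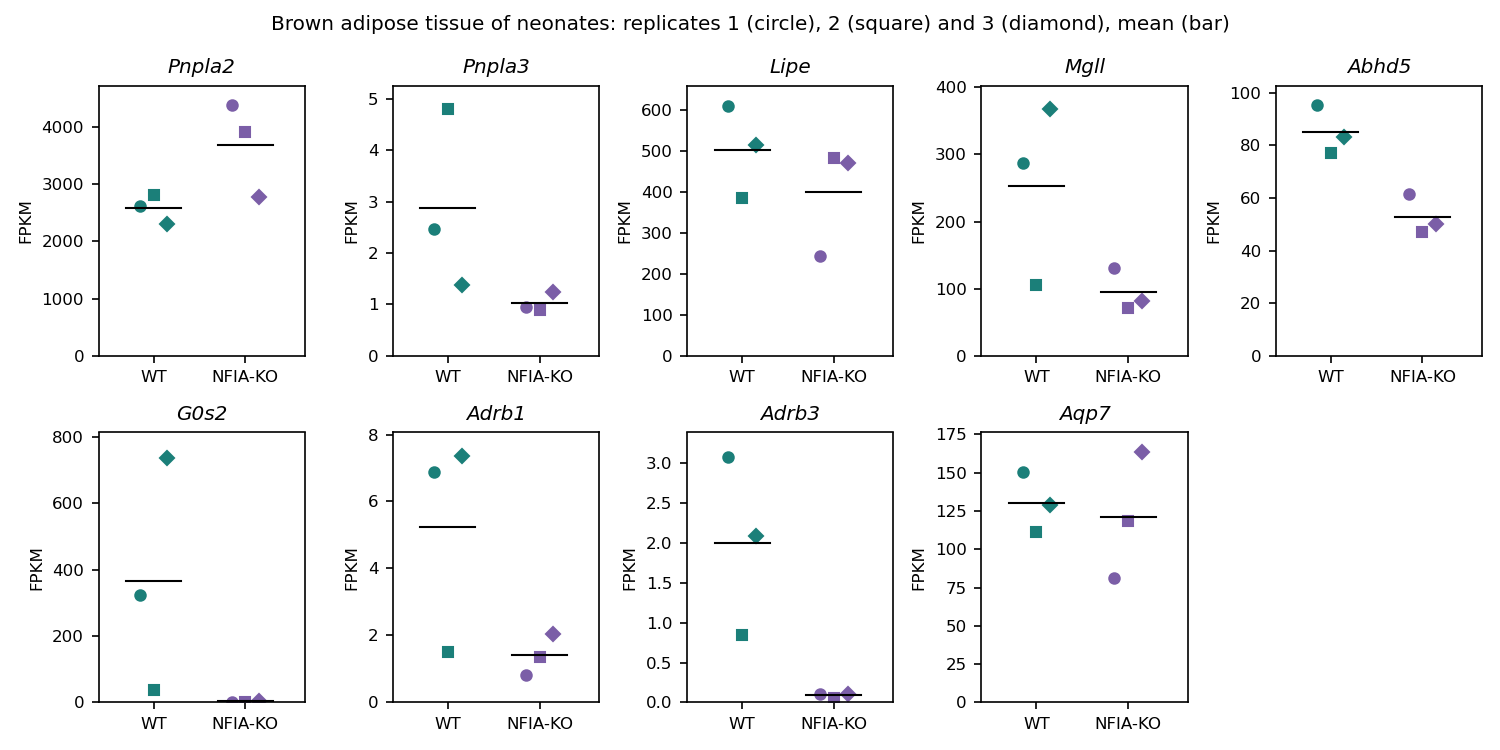
FPKM (y axes, from 0, differing by gene) of the 9 genes in 3 wild-type (WT) and 3 NFIA-KO libraries of brown adipose tissue, with symbols for replicates and bars for means. G0s2, Abhd5, Pnpla3 and Adrb3 separate the groups, and the wild-type square, replicate 2, is low for G0s2, Mgll, Adrb1 and Adrb3.

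Wild-type replicate 2 stood apart in these genes. It was the lowest of the 3 wild-type libraries for Lipe, Mgll, Abhd5, G0s2, Adrb1, Adrb3 and Aqp7, and the highest for Pnpla2 and Pnpla3. Without it 4 genes were lower in the libraries labelled NFIA-KO: G0s2 (-7.11, limma, adjusted p = 0.0037), Abhd5 (-0.75, adjusted p = 0.039), Mgll (-1.82, adjusted p = 0.018) and Adrb1 (-1.78, adjusted p = 0.015). Without wild-type replicates 1 or 3 or NFIA-KO replicates 1 or 2, 0 of the genes passed, with an adjusted p for G0s2 of 0.13, 0.072, 0.067 and 0.091. Without NFIA-KO replicate 3 G0s2 alone passed (adjusted p = 0.044). Over all genes the number called moved from 973 to between 19 and 1361 in these fits, so the calls depend on which libraries enter. The sign of G0s2 and of Abhd5 was the same in all 6 fits.

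Markers of some cell types differed between the tissue labels, where 3.59% of all genes rose and 3.55% fell. None passed of 5 immune, 5 endothelial, 5 erythroid, 4 smooth muscle and 4 adipocyte progenitor markers tested, and 1 of 3 nerve and glia markers fell. Skeletal muscle markers summed to 87.6 to 192 FPKM in wild-type and 384 to 2403 FPKM in NFIA-KO libraries, with 8 of 12 tested higher and 0 lower, and muscle creatine kinase, Ckm, was at 4.36, 0.76 and 10.8 against 148, 26.3 and 80.6 FPKM. The call for Ckm ended in 5 of 6 fits that left a library out. Of 8 brown adipocyte markers 3 fell and 0 rose. Ucp1 fell by 1.73 ± 0.21 (limma, adjusted p = 0.018), Elovl3 by 2.66 ± 0.58 and Cox8b by 2.09 ± 0.11. Of those that did not pass, Cidea (0.38 ± 0.16), Ppargc1a (1.06 ± 0.31) and Dio2 (0.29 ± 0.71) were higher, and Prdm16 and Ebf2 lower. Adipocyte markers summed to 2662 to 25596 and 15064 to 18597 FPKM, the lowest in a wild-type library in which Fabp4 is listed at 0. Of 7 adipocyte markers tested 1 fell and 0 rose. The 1 was Cebpa, with means of 118 FPKM in wild-type and 28.2 FPKM in NFIA-KO tissue (-2.06 ± 0.30, limma, adjusted p = 0.022). Adipoq was 0.24 ± 0.12 lower (adjusted p = 0.22). The part of the tissue's make-up in these results was not tested.

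In tissue few genes of the pathway lists passed, where 3.59% of all genes rose and 3.55% fell. Of 10 droplet genes 1 fell, Fabp5, by 1.19 ± 0.12 (limma, adjusted p = 0.011), while Plin1 (-2.27 ± 0.75, adjusted p = 0.10) and Plin5 (-1.97 ± 0.52, adjusted p = 0.064) did not pass. Of 11 other hydrolases 1 fell, Ces1d, by 2.04 ± 0.25 (adjusted p = 0.016). Of 5 genes of glycerol use 2 fell, Gyk by 1.61 ± 0.37 and Gpd1 by 1.20 ± 0.25. Of 19 genes for cAMP and protein kinase A 1 fell, the cyclase gene Adcy6, by 0.76 ± 0.17. Of 11 receptor genes 1 rose, the prostaglandin receptor Ptger3 (0.62 ± 0.13), and 2 fell. Those that fell were the alpha-adrenergic receptor Adra1a, by 1.25 ± 0.27, and the lactate receptor Gpr81, which restrains lipolysis, by 1.71 ± 0.37. The calls for Gyk, Gpd1, Adcy6, Ptger3, Adra1a and Gpr81, with adjusted p between 0.041 and 0.047, each ended in 3 or more fits that left a library out, and those for Fabp5 and Ces1d in 1 fit each (adjusted p = 0.076 and 0.095).

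The balance of Pnpla2 and its inhibitor can be read as a ratio of FPKM within a library, given here as a description. In control cells Pnpla2 per G0s2 was 0.45 to 1.06. In NFIA cells it was 0.37 to 0.40 at day 0, 1.26, 0.97 and 1.0 at day 7, and 5.82, 4.27 and 4.41 with forskolin, so the forskolin libraries were above all others of the cells. In wild-type tissue it was 8.15, 73.7 and 3.13, and in the libraries labelled NFIA-KO 2079, 2627 and 588. Pnpla2 per Abhd5 was 4.77 to 6.06 in NFIA cells at day 7, 3.01 to 3.38 with forskolin, 27.6 to 36.6 in wild-type and 55.2 to 83.3 in NFIA-KO tissue.

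Likeness of pattern was measured as the root mean square difference of centred mean log2(FPKM + 1) over the 8 groups, among 12802 genes with at least 5 FPKM in a group. Pnpla2 and Lipe were close to each other (0.53), and the gene nearest to either of them was 5730469M10Rik, at 0.40 and 0.43, against medians over all genes of 3.36 and 3.13. Next to Pnpla2 came Chchd10 and Ces1d, and next to Lipe came Plin5 and Chchd10. Mgll was nearest to Ces1d (0.32), Acsl1 and Tusc5, and Aqp7 to Mlxipl (0.22), Cdo1 and Cd300lg. Pnpla3 was nearest to Far2 (0.41), C4a and Fam83a, and Abhd5 to Cyp2b10 (0.27), Gm10529 and Fam181b. Of the 8 genes ranked, G0s2 had the least alike neighbours, with Fam69b nearest at 1.06, then 1110008P14Rik and Obfc2a. Adrb1 was nearest to Rgag1 (0.12), Zfp653 and Tlr13 against a median over all genes of 1.01. Adrb3 was not ranked, having 1 FPKM or more in fewer than 3 libraries.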

How the data were processed

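Per the labels' protocols, stranded TruSeq libraries were made from polyA RNA after Trizol and RNeasy extraction. The deposited values are FPKM; the submitters' processing notes name TopHat, Cufflinks and mm9. Versions and annotation: not given in the sources used here. Entries of a symbol at overlapping loci were summed, which merged 264, and 1 was added to each locus start. Groups follow the labels.

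Two-sided moderated tests with a variance trend were run on log2(FPKM + 1), using limma 3.58.1 under R 4.3.3. The 18 C2C12 libraries formed 1 fit (14351 genes) and the 6 tissue libraries another (13618 genes), over genes with at least 1 FPKM in at least 3 libraries. P-values were adjusted by Benjamini-Hochberg over all genes tested, and a gene was called under 0.05. The procedure was tested on simulated data. Tables were read with pandas 2.3.3.

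Members, lists and the naming rule were chosen with earlier results of these data known. The rule names all 9 members, label checks, and per list up to 4 called genes with the largest change and 2 others by level; 1 listed gene is not reported here. Alternatives were a pseudocount of 0.1, no filter, quantile and median-of-ratios scaling, no trend, a replicate block, header date as a term, numbered libraries only, only the groups compared, zeros as missing, and each library left out.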

Additional observations from a re-analysis of the deposited data

Results flagged for a closer look

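For 7 genes the effect of NFIA differed between day 0 and day 7 by an interaction term in limma. The terms were 5.19 ± 0.28 (SE) for Pnpla2, 5.42 ± 0.13 for Pnpla3, 4.61 ± 0.19 for Lipe, 5.50 ± 0.16 for Mgll, 3.02 ± 0.12 for Abhd5, 3.08 ± 0.47 for G0s2 and 1.44 ± 0.17 for Aqp7 (highest adjusted p = 7.6e-05). Pnpla3 passed the filter only through NFIA cells at day 7, without or with forskolin, and Aqp7 only through those without it, the groups in which they are high. For 6 genes NFIA and control cells differed in their response to forskolin. The terms were -1.61 ± 0.13 for Pnpla3, -0.91 ± 0.19 for Lipe, -0.50 ± 0.16 for Mgll, 0.58 ± 0.12 for Abhd5, -2.23 ± 0.47 for G0s2 and -0.66 ± 0.17 for Aqp7 (limma, highest adjusted p = 0.037). Here too Aqp7 entered only through NFIA cells without forskolin, so the filter fixed its sign.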

How the results depend on the processing

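The counts that follow cover the genes tested, 7 in C2C12 cells and 8 in tissue, and so leave out Adrb3. In all, 456 of 495 values from fits that left a library out kept their direction and their side of the threshold. So did 650 of 670 values from the other alternatives. At day 0 the 1 gene called became 2 under quantile normalization, with a replicate block and with header date as a term, 3 in the numbered libraries alone, and 0 to 1 with a library left out. In tissue the 2 genes called became 0 with no filter and 0 to 4 with a library left out. Quantile normalization reversed the change over time in control cells for Pnpla3 (-0.318, limma, adjusted p = 0.0026), Lipe (-0.266, adjusted p = 0.025) and Aqp7 (-0.035), and the response of control cells to forskolin for Pnpla3 (-0.008). In the numbered libraries alone Lipe reversed over time in control cells (-0.041) and Abhd5 with forskolin in control cells (0.02). The cause was not tested. With a library left out, differences that had not passed reached or crossed 0 as follows. With forskolin in control cells Abhd5 ranged from -0.097 to 0.073, G0s2 from -0.295 to 0.136, Pnpla2 from -0.235 to 0.058 and Pnpla3 from -0.038 to 0.075. At day 0 Aqp7 ranged from -0.021 to 0 and Mgll from -0.016 to 0.158. Lipe over time in control cells ranged from -0.057 to 0.069, Aqp7 in tissue from -0.391 to 0.11, and the interaction of NFIA and forskolin for Pnpla2 from -0.241 to 0.052.

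Same-numbered libraries share only a number: in C2C12 cells only numbers 2 and 3 occur, with correlations of deviations of -0.011 to 0.119, and in tissue the 3 correlations were -0.009, 0.111 and 0.143, with 4 of 6 libraries closest to their own number. With the replicate block, genes called over the whole table were 5159 in place of 3036 at day 0, 1260 in place of 570 with forskolin in control cells and 5041 in place of 2890 for the interaction of NFIA and forskolin. In tissue the block ended the calls of Adra1a, Gpr81, Ptger3, Adcy6 and Gpd1 and of none of the 9 genes. With header date as a term the same counts were 5303, 1343 and 5149, and with only the groups compared in the fit 1872 at day 0 and 239 with forskolin in control cells. The numbered libraries alone gave 4556 for the interaction. In tissue without a filter 40 genes were called, in place of 973. FPKM without read totals give no counting error, which limits the low values of Adrb1, Adrb3 and Aqp7 in cells. With 3 against 3 libraries an exact permutation test cannot go below 0.10.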
